A study of Rattus norvegicus with 33 samples.

Results

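The RNA of 10 genes of blood vessel cells and their growth signals was followed through 10 groups of rat prostate. They are Pecam1, Cdh5, Kdr, Flt1, Tek, Vwf, Ramp2, Esam, Eng and Vegfa, taken by name from the array annotation, with the brightest probe standing for a gene. They are 10 of 23346 genes and unnamed probes fitted, and all 10 passed the filter on dim probes. RNA of 33 prostates of male Sprague-Dawley rats was hybridised to 1 single-colour Agilent microarray each. The samples are labelled whole prostate while the series title names the dorsolateral prostate, so the lobes taken are not settled here.

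All animals received subcutaneous injections on postnatal days (PND) 1, 3 and 5. EB animals were given estradiol benzoate (EB), an estrogen ester, at 2.5 mg/kg and the others vehicle. From PND 90 the adults carried silastic implants, which held testosterone and estradiol (T+E) or were empty. At PND 30 there were 4 EB and 4 control prostates. At PND 100 there were 3 each of EB+T+E, EB, T+E and control. At PND 145 there were 3 EB+T+E, 4 EB, 3 T+E and 3 control prostates. EB and control adults thus both carried empty implants, and control and T+E animals both received neonatal vehicle. The labels give 3 to 4 litters for a group.

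Endothelial cells line blood vessels and are held together by junction proteins. Vegfa is the main secreted growth factor for them and acts through the receptor tyrosine kinases Kdr and Flt1, while Tek receives angiopoietins and Eng is a co-receptor for ligands of the TGF-beta and BMP family. The prostate is a hormone-dependent gland with a dense capillary bed around its ducts, and in rodents its blood vessels are known to respond to androgen withdrawal and replacement.

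Signals are given as log2 of the processed spot signal minus log2 of the 75th percentile of the array, so 0 is the signal of a spot at that percentile and a difference of 1 is a doubling. Levels are compared only between samples for 1 probe, never between probes. Differences are log2 ratios from a limma fit of all 33 arrays, with its standard error (SE), and a gene is called at a Benjamini-Hochberg adjusted p under 0.05 over all genes fitted. The SE and p rest on 1 spread per gene shared by all 10 groups, although groups differed in spread. For a group with a wide spread they can be too small. In bulk tissue, fewer cells of a type and less RNA per cell cannot be told apart.

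Across arrays, 61.5% to 68.9% of 58717 spots were well above background, and the 75th percentile ran from 1694 to 4737 before scaling. Arrays of 1 group correlated at 0.864 to 0.986, with the lowest value among the EB+T+E arrays of PND 100. Replicate 3 of that group and replicate 1 of EB at PND 100 had low endothelial signals within their groups, and EB replicate 1 at PND 145 was low as well. Genes of other tissues also varied. The summed log2 signal of 8 spermatid genes was -4.14 to -2.78 on EB+T+E arrays and -1.66 to 6.02 on control arrays at PND 145, and that of 7 seminal vesicle genes was 4.71 to 5.51 against 6.34 to 7.84. Their part in the results was not tested.

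The probes that disagree within 1 gene are shown first, because the reading of Vwf, Flt1 and Cdh5 turns on them. All are 60 bases long, written 5′ to 3′ as in the scanner files, with coordinates in rat build rn4. Probes in a stretch not recognised as coding are cut to their first 30 bases. The Vwf probes lie 94.6 kb apart, the Flt1 probe of transcript variant 1 lies 74.9 to 78.5 kb from the 3 probes of variant 2, and the Cdh5 probes lie 1.7 kb apart.
Vwf A_43_P21694, the brightest, chr4:161759938-161759997, plus strand: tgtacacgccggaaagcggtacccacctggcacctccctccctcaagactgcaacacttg
Vwf A_64_P114913, chr4:161854554-161854613, plus strand: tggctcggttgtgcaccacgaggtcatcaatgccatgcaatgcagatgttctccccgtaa
Flt1 A_64_P201730, chr12:7957094-7957153, plus strand: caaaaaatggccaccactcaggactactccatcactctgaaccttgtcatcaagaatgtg
Flt1 A_44_P151138, the brightest, chr12:7958826-7958885, plus strand: gtcagtgcagaggaaagaataatcaattgt
Flt1 A_43_P12015, transcript variant 1, chr12:8035639-8035698, plus strand: agatagagccacgtgaggaaaacactattg
Cdh5 A_43_P14288, the brightest, chr19:777961-778020, minus strand: tgctgtaaggataatgactatctattagtc
Cdh5 A_64_P145597, chr19:779665-779724, minus strand: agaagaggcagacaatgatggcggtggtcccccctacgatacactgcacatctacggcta

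Upstream sequence is shown for 1 receptor gene that rose and for the ligand gene that did not, from RefSeq promoter windows of build GRCr8, which held 4 of the 10 genes. The windows run from base 250 to base 51 before the annotated start, 200 bases in all. Capitals mark the motifs GGAAG, letters found in sites of ETS factors, and GGGCGG, letters found in sites of SP factors, each read on either strand. The 2 motifs do not overlap each other here. Of 33469 windows of this length, 54.6% hold GGAAG and 24.2% hold GGGCGG on either strand.
Kdr, chr14:32571813-32572012, plus strand: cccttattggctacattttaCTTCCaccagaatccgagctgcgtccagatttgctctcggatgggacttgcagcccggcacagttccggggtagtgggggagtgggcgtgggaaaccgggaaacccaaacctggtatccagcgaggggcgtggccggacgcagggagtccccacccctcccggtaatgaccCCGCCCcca
Vegfa, chr9:22452604-22452803, plus strand: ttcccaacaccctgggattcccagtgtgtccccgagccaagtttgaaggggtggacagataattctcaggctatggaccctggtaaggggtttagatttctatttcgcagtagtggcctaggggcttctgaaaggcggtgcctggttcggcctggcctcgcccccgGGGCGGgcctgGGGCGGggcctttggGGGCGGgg
The Kdr window held 1 GGAAG and 1 GGGCGG, and the printed Vegfa window held 0 and 3. A second Vegfa window in the same RefSeq table, not printed, held 1 GGAAG and 0 GGGCGG. The Flt1 window, also not printed, held 3 GGAAG and 3 GGGCGG, and that of Eng held 2 and 0. A match is a description of letters in the window, not a binding site.

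The clearest difference was in EB+T+E prostates at PND 145 against control prostates of that age. Of the 10 genes 7 rose and 0 fell, where 14.7% of all genes rose and 20.6% fell. The RNA of Kdr, the main VEGF receptor of endothelium, rose 5.57-fold. That of the adhesion genes Pecam1 and Cdh5 rose 4.12-fold and 3.98-fold, for Cdh5 by its bright probe. The second Cdh5 probe averaged -5.46 in EB+T+E prostates and -5.65 in control prostates. Vegfa and the bright Vwf probe did not pass the test, with ratios below 0. The median log2 ratio of the 10 genes was 1.57, beside a median of -0.24 over all genes. Without EB+T+E replicate 1 the count of the 10 genes that rose was 4, and 5201 of all genes were called. With every array 3434 of all genes rose and 4818 fell. Within each of 2 slides that held both groups, the 8 genes other than Vwf and Vegfa had log2 ratios of 0.88 to 2.93. These 8 were set apart with the values known, so the sign of that range describes the choice. Vwf had -1.47 to -0.61 and Vegfa -0.42 to -0.37 within the same slides. EB+T+E replicate 1 was on another slide and has no part in these ranges.

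Among the receptors, Kdr signals were 2.54, 2.16 and 0.65 in EB+T+E prostates and -0.83, -0.76 and -0.49 in control prostates at PND 145. The groups did not overlap, although replicate 3 of EB+T+E lay well below the other two. The log2 ratio was 2.48 ± 0.60 (SE, limma adjusted p = 0.0026). Flt1, the gene of the second VEGF receptor, was read by a probe assigned to transcript variant 2. It had -2.78, -3.06 and -3.52 in EB+T+E prostates against -5.29, -4.73 and -4.89 in control prostates. Its log2 ratio was 1.85 ± 0.57 (SE, limma adjusted p = 0.014), and every EB+T+E array was above every control array.

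Tek, the angiopoietin receptor, had signals of 0.44, 0.22 and -0.31 in EB+T+E prostates at PND 145 against -1.52, -1.23 and -1.40 in control prostates. It rose 2.83-fold, by 1.5 ± 0.46 on the log2 scale (SE, limma adjusted p = 0.014). Eng had -3.48, -3.75 and -3.60 in EB+T+E prostates and -4.88, -4.79 and -4.49 in control prostates. The groups were apart for Eng too, yet its log2 ratio of 1.11 ± 0.60 (SE) had a limma adjusted p of 0.15. Ramp2, which pairs with the calcitonin-receptor-like receptor to receive adrenomedullin, had -0.73, -0.59 and -0.16 in EB+T+E prostates against -1.36, -2.45 and -2.09 in control prostates. Ramp2 had the smallest adjusted p of the 10 genes, 0.0015 by limma, at a log2 ratio of 1.47 ± 0.33 (SE).

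The RNA of the junction genes moved with that of the receptor genes at PND 145, for Cdh5 by its bright probe only. Pecam1, an adhesion molecule at endothelial contacts and on platelets and leukocytes, had signals of 1.59, 1.41 and 0.68 in EB+T+E prostates and -1.32, -0.59 and -0.53 in control prostates. Its log2 ratio was 2.04 ± 0.51 (SE, limma adjusted p = 0.0035). Cdh5, the cadherin of endothelial adherens junctions, had 1.07, 0.46 and -0.14 in EB+T+E prostates against -2.0, -1.14 and -1.45 in control prostates, a log2 ratio of 1.99 ± 0.51 (SE, limma adjusted p = 0.0045). The groups of both genes stood apart. Esam, a junction adhesion molecule of endothelium and platelets, had -1.93, -2.29 and -2.54 in EB+T+E prostates against -3.89, -3.93 and -3.84 in control prostates, and rose by 1.64 ± 0.54 on the log2 scale (SE, limma adjusted p = 0.021).

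The ligand did not rise with Kdr and Flt1. Vegfa signals were -0.07, 0.36 and 0.43 in EB+T+E prostates at PND 145 against 0.81, 0.78 and 0.79 in control prostates. Every EB+T+E array was below every control array, and the log2 ratio of -0.56 ± 0.29 (SE) had a 95% interval of -1.15 to 0.04 and a limma adjusted p of 0.13. The other 2 Vegfa probes had log2 ratios of -0.41 and -0.61 (limma adjusted p = 0.26 and 0.14). Groups were apart in 8 of 10 genes upwards and in 2 downwards, where 20.7% and 31.8% of all genes were.

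Vwf, the clotting protein stored in endothelial granules, depended on the probe. The bright probe had signals of -1.78, -1.77 and -1.22 in EB+T+E prostates at PND 145 against -1.04, -0.29 and -0.61 in control prostates, a log2 ratio of -0.94 ± 0.40 (SE, limma adjusted p = 0.069). The probe 94.6 kb further along had -2.01, -3.26 and -2.10 in EB+T+E prostates against -3.98, -3.55 and -3.86 in control prostates, a log2 ratio of 1.34 ± 0.57 (SE, limma adjusted p = 0.066). Both probes separated the groups, in opposite directions. Against EB prostates of that age the second probe rose by 1.57 ± 0.53 (SE, limma adjusted p = 0.034), while the bright probe had -0.53 ± 0.38 (SE, limma adjusted p = 0.32). The mean over both Vwf probes had a log2 ratio of 0.20 against controls (limma adjusted p = 0.61), so the direction of Vwf is not settled by these arrays.

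**Figure D1:**
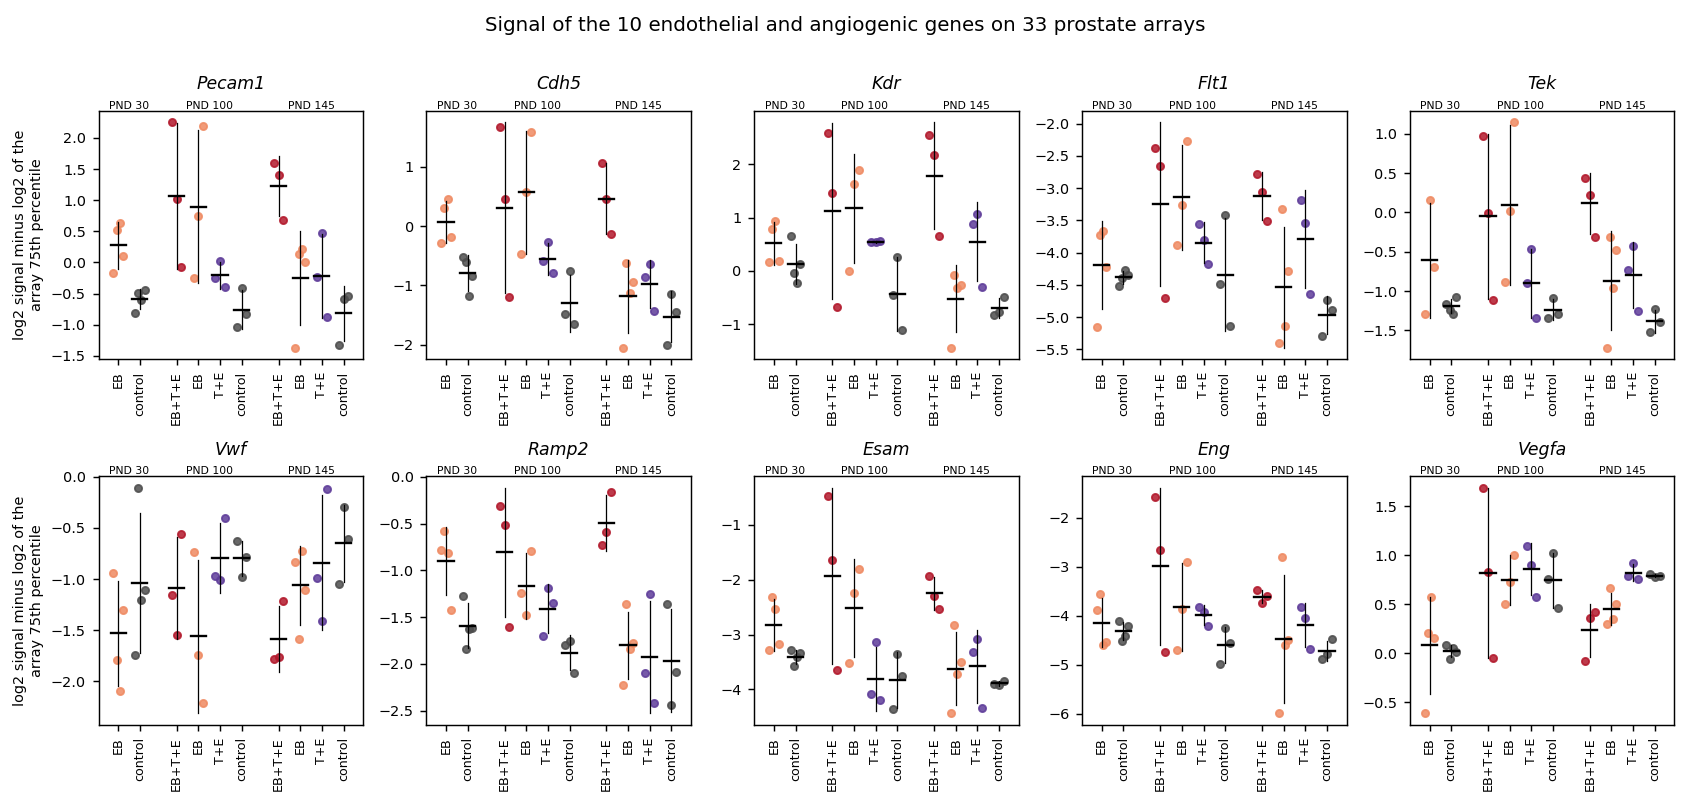
Signals of the 10 genes, one panel a gene, with one point per array and the y axis in log2 signal minus log2 of the 75th percentile of the array. Black bars are group means and vertical lines 1 SD, and groups run by age with EB+T+E, EB, T+E and control from left to right. At PND 145 the 3 EB+T+E arrays lie above the 3 control arrays for 8 genes and below them for Vwf and Vegfa.

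Flt1 and Cdh5 also had several probes. For Flt1 the probe of transcript variant 1 was well above background on 0 of 33 arrays, so the Flt1 values are those of probes assigned to variant 2. They do not show a change of variant 1, and the protein form made was not tested. The probe A_64_P201730 rose by 2.07 ± 0.71 in EB+T+E prostates against control prostates at PND 145 (SE, limma adjusted p = 0.025), and A_44_P463262 had 1.41 ± 0.56 (SE, limma adjusted p = 0.050, just outside the threshold). The second Cdh5 probe had 0.19 ± 0.37 (SE, limma adjusted p = 0.72) where the bright one rose. Its signal correlated at 0.27 with the mean of the other endothelial genes over 33 arrays, against 0.95 for the bright probe.

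**Figure D2:**
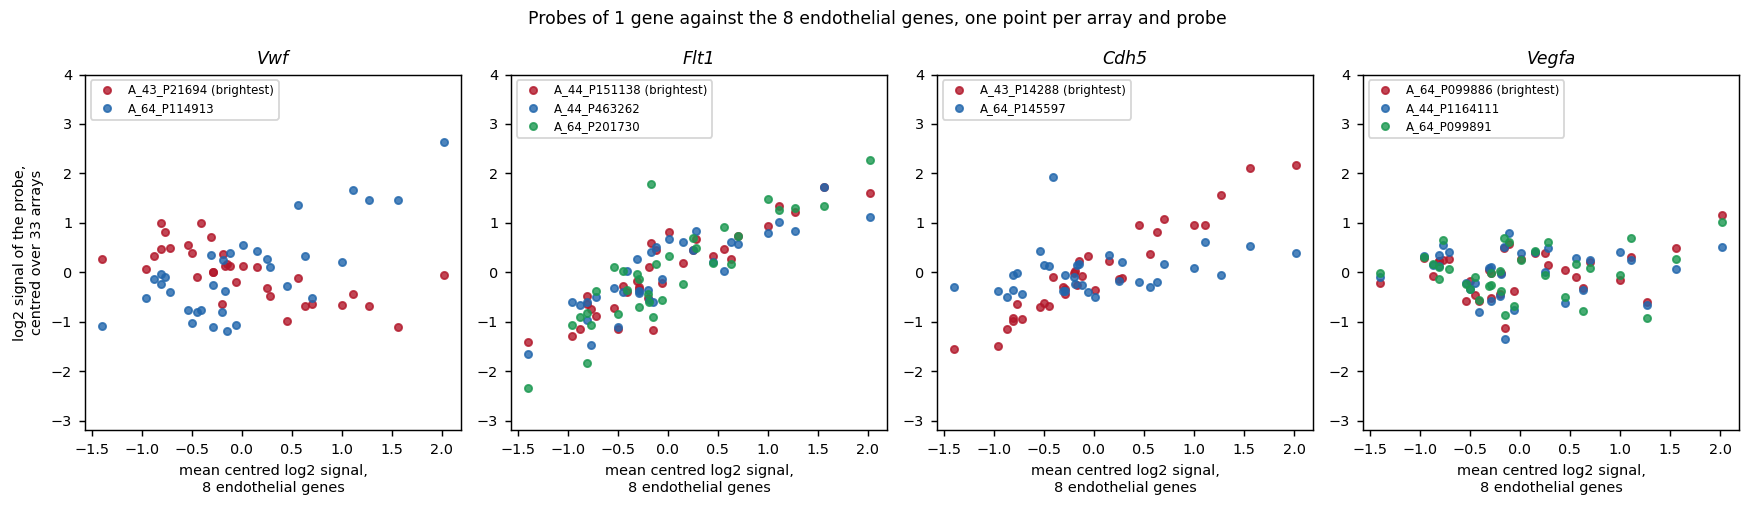
Signals of the probes of Vwf, Flt1, Cdh5 and Vegfa, each centred over 33 arrays, against the mean centred log2 signal of 8 endothelial genes (all but Vwf and Vegfa, left out once their values were known). The Vwf probes run in opposite directions (r of -0.70 and 0.76), the 3 plotted Flt1 probes run with the mean (r of 0.84 to 0.88), and the second Cdh5 probe follows it weakly (r of 0.27), as did the variant 1 Flt1 probe that is not plotted (r of 0.28).

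EB+T+E prostates were also set against each single treatment at PND 145. Against EB, 4 of the 10 genes rose and 0 fell, where 10.6% of all genes rose and 12.3% fell. For 6 of the 10 the EB+T+E arrays all lay above the EB arrays, where 13.8% of all genes did. Kdr had -1.44, -0.07, -0.31 and -0.26 in EB prostates, below all 3 EB+T+E arrays, and a log2 ratio of 2.30 ± 0.56 (SE, limma adjusted p = 0.0041). Ramp2 rose by 1.31 (limma adjusted p = 0.0035), Cdh5 by 1.65 (limma adjusted p = 0.015) and Pecam1 by 1.48 (limma adjusted p = 0.027). The second Cdh5 probe averaged -5.46 in EB+T+E prostates and -5.45 in EB prostates. With the mean of all probes Cdh5 lost its call (log2 ratio of 0.82, limma adjusted p = 0.078). Esam and Flt1 had log2 ratios of 1.37 and 1.42 and missed the threshold (limma adjusted p = 0.051 and 0.053). The count of 4 became 2 without EB replicate 1 and also without EB+T+E replicate 1 or 2. Calls over all genes were then 3682, 2781 and 3000, where with every array 2470 rose and 2880 fell. Within 3 slides the ratios of the 8 genes ran from -0.93 to 3.98, and 7 of the 8 were above 0 on every slide.

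Against T+E at PND 145, 3 of the 10 genes rose and 0 fell, where 9.69% of all genes rose and 11.7% fell. They were Ramp2, by 1.44 ± 0.33 (SE, limma adjusted p = 0.0031), Pecam1, by 1.44 ± 0.51 (SE, limma adjusted p = 0.044), and Cdh5, by 1.44 ± 0.51 (SE, limma adjusted p = 0.047). Ramp2 had signals of -2.10, -1.26 and -2.42 in T+E prostates, and the 3 EB+T+E arrays lay above them. Kdr in T+E prostates was 0.87, 1.07 and -0.30, overlapping EB+T+E, and its log2 ratio of 1.24 had an interval of 0.02 to 2.46 (limma adjusted p = 0.14). The groups were apart upwards for 6 of 10 genes and downwards for 1, Vegfa, where 17.3% and 23.7% of all genes were. The count of 3 became 1 without EB+T+E replicate 1 or 2 and without T+E replicate 1 or 3. Calls over all genes were then 2756, 2985, 3159 and 2346, where with every array 2262 rose and 2730 fell. With slide as a block Pecam1 and Cdh5 lost their calls (log2 ratios of 1.39 and 1.41, limma adjusted p = 0.067 and 0.055), and Cdh5 also did with the replicate block (limma adjusted p = 0.051). With the mean of all probes Cdh5 lost its call too (log2 ratio of 0.80, limma adjusted p = 0.12). Its second probe averaged -5.46 in EB+T+E prostates and -5.61 in T+E prostates. Within 2 slides the ratios of the 8 genes were 0.30 to 2.26, those of Vwf -1.10 to -0.35 and those of Vegfa -0.56 to -0.33. EB+T+E replicate 1 and T+E replicate 1 were on other slides and have no part in these ranges. These comparisons share the EB+T+E arrays with the comparison against controls.

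Neither single treatment moved a gene past the threshold at PND 145. EB against control gave log2 ratios of -0.41 to 0.56, and 0 of the 10 genes were called, where 0.57% of all genes were, with 0 at an unadjusted p under 0.05 in limma. The EB arrays all lay below the control arrays for 1 of 10 genes, Vegfa, where 10.4% of all genes did. T+E against control gave -0.19 to 1.24, also with 0 of 10 called where 0.381% of all genes were. The lowest ratio was that of the bright Vwf probe, while the second Vwf probe averaged -3.19 in T+E prostates and -3.80 in control prostates. Kdr and Flt1 had the highest ratios there, 1.24 and 1.18, with groups apart and intervals of 0.02 to 2.46 and 0.02 to 2.35 (limma adjusted p = 0.50 for both). Both had an unadjusted p under 0.05, and they were the 2 of 10 genes whose groups were apart, where 9.12% of all genes were higher and apart. The test of whether EB and T+E together differ from the sum of their separate ratios called 0 of 10 genes at PND 145, where 0.771% of all genes were called. Ramp2 came nearest, at 1.27 ± 0.45 (SE, limma adjusted p = 0.19), and was the 1 gene at an unadjusted p under 0.05.

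**Figure D3:**
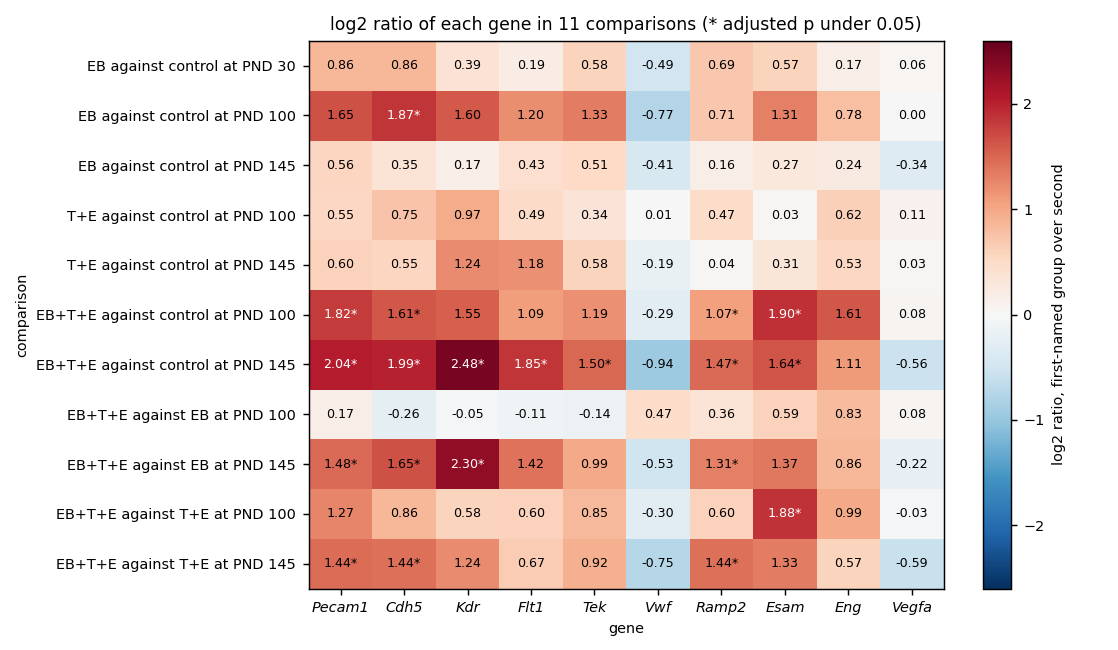
The log2 ratio of each of the 10 genes (columns) in 11 comparisons (rows), the first-named group over the second, with an asterisk where the adjusted p is under 0.05. Calls lie in the rows of EB+T+E and in 1 cell of EB at PND 100 (Cdh5, 1.87).

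At PND 100 the EB+T+E prostates varied more. Of the 10 genes 4 rose against control and 0 fell, where 5.41% of all genes rose and 7.2% fell. The groups were apart for 2 of them, Pecam1 and Ramp2, where 11.2% of all genes were higher and apart. Pecam1 had 2.25, 1.02 and -0.08 in EB+T+E prostates against -1.03, -0.41 and -0.83 in control prostates, and rose by 1.82 ± 0.51 (SE, limma adjusted p = 0.020). Esam had -0.48, -1.65 and -3.65 in EB+T+E prostates against -4.36, -3.36 and -3.76 in control prostates, so its groups overlapped. It rose by 1.90 ± 0.54 (SE, limma adjusted p = 0.022). The SD of Esam was 1.60 in EB+T+E prostates and 0.50 in control prostates, so the SE, from the spread of all groups, does not measure that of these. Ramp2 rose by 1.07 (limma adjusted p = 0.033) and Cdh5 by 1.61 (limma adjusted p = 0.039). The second Cdh5 probe averaged -4.89 in EB+T+E prostates and -5.61 in control prostates. The bright Vwf probe averaged -1.09 and -0.80 in these groups, and the second Vwf probe -2.28 and -3.71.

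Replicates 1 and 2 of EB+T+E at PND 100 were high for 8 genes and replicate 3 was near the controls. Kdr had 2.59, 1.45 and -0.67 in EB+T+E prostates against -0.44, 0.26 and -1.11 in control prostates, with a log2 ratio of 1.55 (limma adjusted p = 0.085). Tek, Eng and Flt1 had 1.19, 1.61 and 1.09 (limma adjusted p = 0.089, 0.078 and 0.21). The count of 4 calls became 8 without EB+T+E replicate 3, 0 without EB+T+E replicate 1, 0 without control replicate 1 or 3, and 1 without EB+T+E replicate 2. Of all 23346 genes, 5752 were called without EB+T+E replicate 3 and 706 without EB+T+E replicate 1. They numbered 1352 and 1737 without control replicate 1 and 3, and 3278 without EB+T+E replicate 2. With every array 1262 rose and 1681 fell, so calls over all genes moved too. Fitted on these groups alone, the comparison called 0 genes of any kind. In the same replicates 1, 2 and 3 of EB+T+E, the mean centred signal of 10 skeletal muscle genes was 5.53, 4.03 and -4.47, that of 18 leukocyte genes 2.06, 1.22 and 0.67, and that of 13 luminal genes -2.66, -0.07 and -0.15. Skeletal muscle, leukocyte and endothelial means thus had the same order over these 3 arrays, with endothelial means of 2.02, 1.11 and -0.54. Against control, 8 of 18 leukocyte and 7 of 12 fibroblast genes rose, 5 of 13 luminal genes fell and 0 of 10 muscle genes were called. Of all genes 5.41% rose and 7.2% fell there. The part of these tissues in the endothelial difference was not tested. Within slides 1 and 2, which held 1 array of each group, the 8 endothelial genes other than Vwf and Vegfa had log2 ratios of 1.29 to 3.7, a range that EB+T+E replicate 3, on another slide, has no part in.

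Vegfa at PND 100 had 1.69, 0.83 and -0.05 in EB+T+E prostates and 0.76, 1.02 and 0.46 in control prostates. The log2 ratio was 0.08, with an interval of -0.51 to 0.67. Against T+E prostates, 1 of 10 genes rose at PND 100, Esam by 1.88 ± 0.54 (SE, limma adjusted p = 0.048), where 2.66% of all genes rose and 1.34% fell. Without EB+T+E replicate 3, 6 of the 10 genes were called there, and 5562 of all genes. Without any other array of that comparison 0 were, where 8 to 1518 of all genes were called. Against EB prostates 0 of 10 were called, where 1.71% of all genes were, with log2 ratios of -0.26 to 0.83 and 0 at an unadjusted p under 0.05. Ratios of the 8 endothelial genes against EB had a median of 0.06.

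Neonatal EB alone at PND 100 was called for 1 of 10 genes, where 1.81% of all genes rose and 0.874% fell. Cdh5 had -0.47, 0.58 and 1.60 in EB prostates against -1.48, -0.76 and -1.66 in control prostates, and rose by 1.87 ± 0.51 (SE, limma adjusted p = 0.047). Pecam1 had -0.25, 0.75 and 2.19 in EB prostates against -1.03, -0.41 and -0.83 in control prostates, and a log2 ratio of 1.65 (limma adjusted p = 0.067). The groups were apart for Pecam1, Cdh5, Tek and Ramp2, 4 of 10 genes, where 11.5% of all genes were higher and apart. EB replicate 1 was the lowest for 8 genes, and without it 5 of the 10 genes were called, and 2717 of all genes. With every array 423 of all genes rose and 204 fell. Without any other array of the comparison the count was 0, where 7 to 408 of all genes were called. The Cdh5 call was also lost under 8 of 11 other settings, the replicate block among them, with log2 ratios of 1.84 to 2.01 in 7 of these and 1.13 with the mean of all probes. Leukocyte means of EB replicates 1, 2 and 3 were -0.40, 1.53 and 2.77, against -1.30 to -0.58 in control prostates, in the same order as their endothelial means of -0.19, 0.70 and 1.56. Fibroblast means were 0.47, -0.15 and 1.26 in EB prostates and -1.23 to -0.47 in control prostates. In this comparison 6 of 18 leukocyte and 2 of 12 fibroblast genes rose, and the part of these cells in the endothelial difference was not tested. Within 2 slides the ratios of the 8 genes other than Vwf and Vegfa were 0.62 to 3.22, though EB replicate 1 was on another slide and so has no part in that range. Of the 10 genes, 7 had an unadjusted p under 0.05.

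T+E alone at PND 100 called 0 of 10 genes, where 0.193% of all genes were called, with log2 ratios of 0.01 to 0.97 and 0 at an unadjusted p under 0.05. Kdr was 0.53, 0.53 and 0.56 in T+E prostates against -0.44, 0.26 and -1.11 in control prostates, with an interval of -0.25 to 2.2 for the log2 ratio. Its groups were apart, as for 4 of 10 genes, where 10.4% of all genes were higher and apart. The same test of EB and T+E together at PND 100 called 0 of 10 genes, where 0% of all genes were called, and 0 of the 10 had an unadjusted p under 0.05.

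At PND 30 neonatal EB called 0 of 10 genes, where 0.0471% of all genes were called, with 1 gene, Ramp2, at an unadjusted p under 0.05. Pecam1 had -0.16, 0.52, 0.63 and 0.10 in EB prostates against -0.82, -0.49, -0.60 and -0.45 in control prostates, with a log2 ratio of 0.86 ± 0.44 (SE, limma adjusted p = 0.44). Cdh5 had the same log2 ratio, 0.86, and Ramp2 had 0.69 (limma adjusted p = 0.44 and 0.34). Pecam1, Cdh5 and Esam were apart between the groups, 3 of 10 genes, where 1.88% of all genes were higher and apart. The bright Vwf probe had -0.49, while the second Vwf probe averaged -4.01 in EB prostates and -4.33 in control prostates. Vegfa had 0.06. Its probes A_44_P1164111 and A_64_P099891 averaged -3.96 and -2.85 in EB prostates against -3.71 and -2.36 in control prostates. The Tek spot of EB replicate 3 was an outlier on the array, so the Tek value there is missing and the group has 3 Tek values.

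Between ages, EB prostates at PND 145 were lower than EB prostates at PND 100 for 9 of 10 genes, all but the bright Vwf probe. The second Vwf probe averaged -4.03 at PND 145 and -3.07 at PND 100. Of the 10 genes 0 were called, where 0.745% of all genes were, with 6 at an unadjusted p under 0.05. Cdh5 had the largest difference, -1.75 ± 0.48 (SE, limma adjusted p = 0.081), while its second probe averaged -5.45 at PND 145 and -5.22 at PND 100. Cdh5 and Kdr were the 2 of 10 genes whose groups were apart downwards, where 4.99% of all genes were. Without EB replicate 1 at PND 100, 3 of the 10 genes were called, and 1638 of all genes. The EB ratio at PND 145 minus that at PND 100 called 0 of 10 genes, where 0% of all genes were called, with 1 of 10, Cdh5, at an unadjusted p under 0.05. The EB ratio at PND 100 minus that at PND 30 also called 0 of 10, where 0.0214% of all genes were, with 0 at an unadjusted p under 0.05. Control prostates at PND 100 against PND 30 had a log2 ratio of 0.72 for Vegfa (limma adjusted p = 0.19), the 1 gene at an unadjusted p under 0.05, and 0 calls, where 2.24% of all genes were called. Control prostates at PND 145 against PND 100 had 0 calls too, where 0% of all genes were called. T+E and EB+T+E prostates at PND 145 against PND 100 had 0 calls each, where 0.0428% and 3.46% of all genes were called. In these last 3 comparisons 0 of 10 genes had an unadjusted p under 0.05. The second Vegfa probe, A_44_P1164111, rose in EB prostates at PND 100 against PND 30, by 0.87 (limma adjusted p = 0.042), while 0 of 10 genes were called through their bright probes, where 8.62% of all genes were, and 1, Vegfa, had an unadjusted p under 0.05.

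By group mean, Pecam1, Kdr, Flt1, Tek and Ramp2 were highest in EB+T+E prostates at PND 145 and all 8 genes other than Vwf and Vegfa were lowest in control prostates of that age. Cdh5 was highest in EB prostates and Esam and Eng in EB+T+E prostates at PND 100. Neighbours in this order of 10 groups mostly differed by less than the larger SD of the pair: 1 neighbouring step each passed it for Pecam1, Cdh5, Esam and Vegfa, and 0 for the other 6 genes. The mean centred signal of 8 endothelial genes was 0.95 ± 0.36 in EB+T+E prostates, -0.47 ± 0.70 in EB prostates, -0.18 ± 0.56 in T+E prostates and -0.81 ± 0.13 in control prostates at PND 145 (SD, n = 4 for EB and 3 for the others). At PND 100 it was 0.87 ± 1.3 in EB+T+E prostates, 0.69 ± 0.88 in EB prostates, -0.09 ± 0.23 in T+E prostates and -0.61 ± 0.39 in control prostates (SD, n = 3 each). The spread of EB+T+E and EB at PND 100 was the widest of all groups.

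Over 33 arrays the 8 genes other than Vwf and Vegfa had Pearson r of 0.61 to 0.96 over 28 pairs, with a median of 0.83, in values that share array scaling and tissue makeup. They were set apart from Vwf and Vegfa with the values known, so this likeness describes that choice. The bright Vwf probe had r of -0.72 to -0.50 with them. Vegfa correlated at 0.28 with the mean of the others, and at 0.73 once group means were removed. The genes most like the mean of the 9 members other than Vegfa were Nrp1, a VEGF co-receptor, at 0.97, and Acvrl1, the endothelial BMP9 receptor, at 0.96. Arap3, Tgfbr2, Scarf1, Zfp521, Hip1 and Trim47 followed at 0.95 to 0.94 over the same arrays. For Vegfa they were Tgfbr3 at 0.80, then Il1rl1, Cpt1b, Clic5, Slco2a1, Slc7a8, Abra and Cldnd1 at 0.76 to 0.74.

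Other genes listed as endothelial moved with the members. Of 33 measured genes in a further endothelial list, 20 rose and 1 fell in EB+T+E prostates against control prostates at PND 145, with a median log2 ratio of 1.52, where 14.7% of all genes rose and 20.6% fell. The adhesion molecule Icam2 rose by 3.16 ± 0.48 (SE, limma adjusted p = 2.5e-05), and the transcription factors Fli1, Sox18 and Sox7 by 3.14, 2.45 and 3.02. Leukocyte genes rose in the same comparison, and which cells gave the RNA of these genes was not tested. At PND 100 11 rose and 1 fell in EB+T+E prostates, where 5.41% of all genes rose and 7.2% fell, among them Myct1 (2.33) and Cd93 (2.04), and Gata2 fell by 2.45. In EB prostates at PND 100, 3 of 33 rose, Cd93, Egfl7 and Sox18, where 1.81% of all genes did.

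Growth factor pathways were mixed. Of 39 measured genes of the VEGF, angiopoietin, adrenomedullin and BMP9 pathways, 10 rose and 4 fell in EB+T+E prostates at PND 145, with a median of 0.36, beside the same 14.7% and 20.6% of all genes. Thbs2, an inhibitor of angiogenesis, rose by 3.57 ± 0.66 (SE, limma adjusted p = 0.00023) and Vegfd, a ligand that also acts on lymphatic vessels, by 2.47, while Vegfb fell by 1.57 and the BMP receptor Bmpr2 by 1.28. Of 18 hypoxia-responsive genes 4 rose and 3 fell, P4ha1 by 1.86 and Egln3 by 3.00 upwards, and Bnip3 fell by 1.69. The hypoxia counts were near the shares of all genes, 14.7% higher and 20.6% lower.

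Genes of activated endothelium and of high endothelial venules, through which lymphocytes leave the blood, rose in 6 of 10 measured at PND 145, with 0 falling and a median of 2.17, where 14.7% of all genes rose. Icam1 rose by 3.50 ± 0.59 (SE, limma adjusted p = 7.9e-05), Vcam1 by 3.03, the fucosyltransferase Fut7 by 2.24 and the chemokine-binding Ackr1 by 2.11. The list name does not fix the cell of origin, which was not tested, and leukocyte genes rose on the same arrays. Of 9 lymphatic genes 3 rose, Prox1, Pdpn and Lyve1, and 1 fell, Gata2. Of 15 pericyte and mural genes 5 rose and 2 fell, with Pdgfrb up by 2.73 and Rgs5 by 1.58. Of all genes 14.7% rose and 20.6% fell in this comparison.

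**Figure D4:**
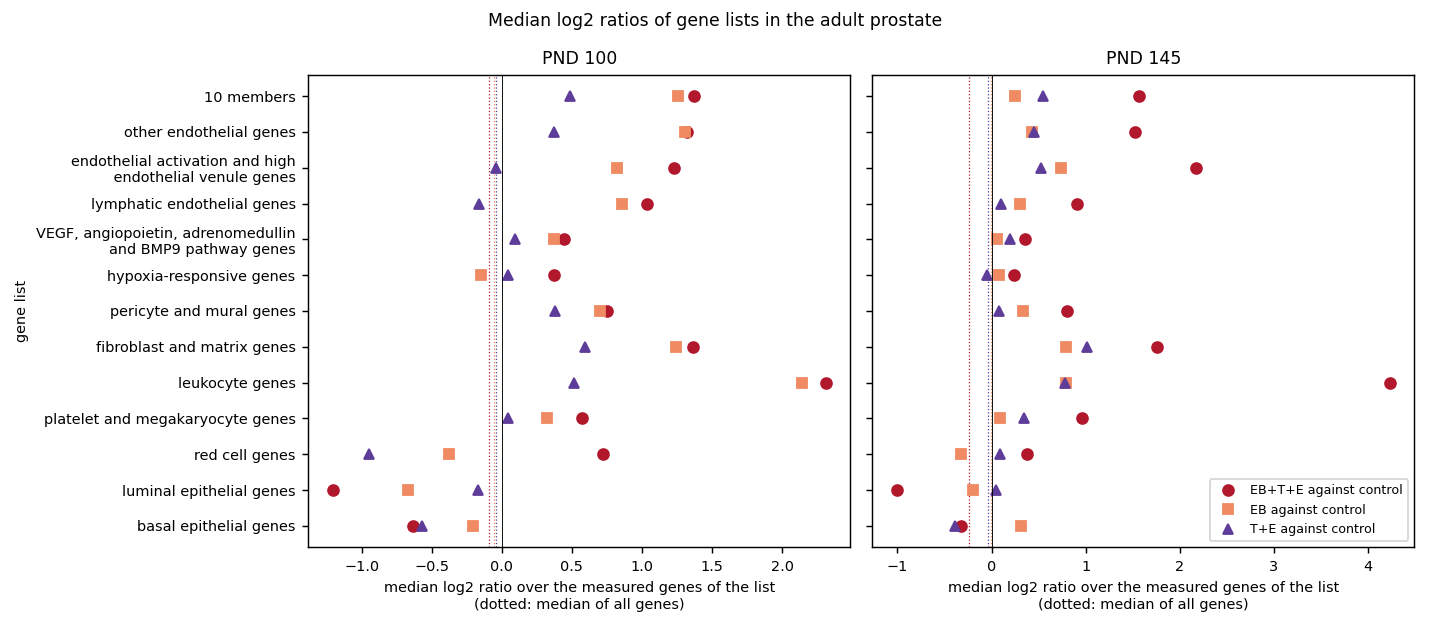
Median log2 ratio of the measured genes of 13 lists (rows) against control, at PND 100 (left) and PND 145 (right), with a symbol for each treatment and dotted lines at the median of all genes. In EB+T+E prostates at PND 145 the 10 members stand at 1.57, other endothelial genes at 1.52 and leukocyte genes at 4.23, while luminal epithelial genes stand at -1.0.

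Markers of other cell types moved in the same samples. At PND 145, 17 of 18 leukocyte genes rose in EB+T+E prostates against control prostates and 0 fell (median 4.23), among them Cd4, Adgre1, Ptprc and Cd68. Their summed log2 signal was 5.92 to 6.81 on EB+T+E arrays and 2.86 to 3.93 on control arrays, and 18 of the 18 genes were well above background on some EB+T+E array and 13 on some control array. Of 12 fibroblast and matrix genes 11 rose, of 13 luminal epithelial genes 6 fell and 1 rose, with a summed signal of 5.81 to 6.91 on EB+T+E arrays and 7.4 to 7.6 on control arrays. Red cell genes were called in 0 of 8. For each of these lists the share of all genes was 14.7% higher and 20.6% lower. Platelets carry Pecam1 and Esam, and 2 of 7 platelet genes rose, Pf4 by 2.48 and Gp6 by 4.46, where 14.7% of all genes rose. Of 10 nerve and Schwann cell genes 5 rose and 1 fell, and of 10 skeletal muscle genes 0 were called. The part of these changes in the endothelial result was not tested.

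Over 33 arrays the mean of the 8 endothelial genes correlated at 0.71 with leukocyte genes, at 0.75 with fibroblast genes, at 0.44 with skeletal muscle genes and at -0.77 with luminal genes. Once group means were removed the values were 0.52, 0.85, 0.65 and -0.65. The arrays of EB at PND 30 had endothelial means of -0.15 to 0.63 with a summed leukocyte signal of 2.95 to 5.63, against endothelial means of -0.45 to -0.19 and leukocyte sums of 2.6 to 4.49 in control prostates. EB replicates 2 and 3, with the highest endothelial means of that group (0.63 and 0.45), had skeletal muscle means of 2.48 and 2.72 and nerve means of 3.46 and 3.18. Skeletal muscle means were -3.29 and -0.25 and nerve means -0.82 and 2.24 in EB replicates 1 and 4, and control prostates had -2.20 to 1.7 for muscle and 0.69 to 2.24 for nerve. Fibroblast means were 0.69 to 1.5 in EB prostates and 0.43 to 0.72 in control prostates, and the part of these tissues in the PND 30 ratios was not tested.

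**Figure D5:**
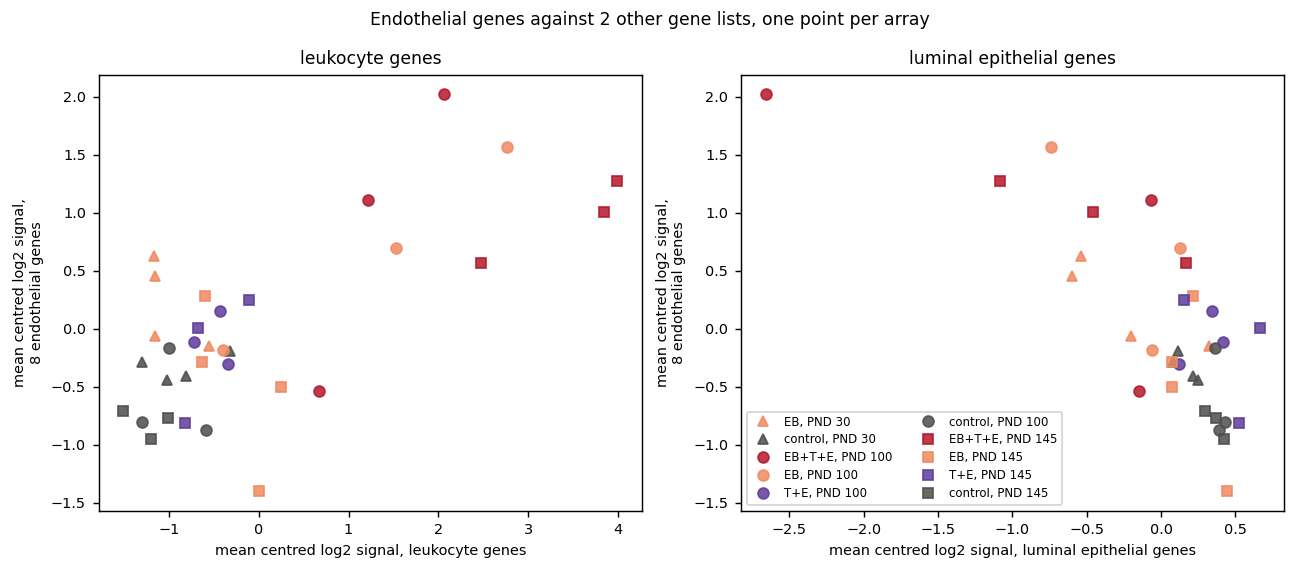
Mean centred log2 signal of 8 endothelial genes (y axis) against that of leukocyte genes (left) and luminal epithelial genes (right), one point per array, colour for treatment and shape for age. The EB+T+E arrays of PND 145 lie high on both axes of the left panel, and the array with the lowest luminal mean is an EB+T+E array of PND 100.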

How the data were processed

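The 33 samples, with 500 ng RNA of RIN 8 or more per the labels' protocols, were scanned and quantified by Agilent Feature Extraction 12.0.0.7 (protocol GE1_1200_Jun14, array design 074036, rn4), per the file headers. The deposited spot values are intensities on a linear scale, with the background subtracted per the file headers; scaling between arrays was added here. A deposited table of intensities, for which no method is given in these sources, was an alternative.

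Each array's log2 processed signal had log2 of its 75th percentile over non-control spots subtracted. Outlier spots were left out, spots of a probe averaged, and probes kept that 3 or more of 33 arrays showed well above background, with the brightest for each symbol. Of 45598 probes 21177 were named by accession, 9067 by symbol and 406 by synonym, 5247 kept the file's name and 9701 had none. The fit used limma 3.58.1 and R 4.3.3 on group means (trended, robust empirical Bayes, Benjamini-Hochberg within each of 21 comparisons over 23346 genes). Named genes were the 10 members and up to 4 genes of smallest p in a described list. The members and lists were chosen with earlier results of these data known. Tested on simulated data, the fit recovered 19% to 25% of genes changed by 1 and 58% to 62% of those changed by 2 on the log2 scale, with 2 or 3 false calls among 23133 genes. Deviations from group means of same-numbered replicates correlated at -0.44 to 0.46 over all. Every such correlation passed 0.1 in 1 of 17 comparisons (EB+T+E at PND 145 against PND 100, 0.12 to 0.34). Different-numbered replicates were not compared, so this does not show a pairing. Python 3.11.15, pandas 2.3.3, the package data.table in version 1.17.8 and matplotlib 3.10.9 were used.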

Additional observations from a re-analysis of the deposited data

Results flagged for a closer look

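Within the EB group at PND 145, Pecam1 was flagged by 1 array far from the rest. EB replicate 1 had a log2 signal of -1.37, while the next lowest array was at 0.00 and the highest at 0.22. That array was the lowest of its group for 9 of the 10 genes, all but Vwf, among them Cdh5 (-2.05), Flt1 (-5.40), Ramp2 (-2.23), Eng (-5.99) and Vegfa (0.30). Of 29 combinations of gene and group large enough to be examined, this was the 1 flagged. The gap is set against Dixon's 95% critical value, which chance alone passes in about 1 in 20 groups by its definition. Without this array the count of members called in EB+T+E against EB at PND 145 was 2, against 4 with it. Calls over all genes were 3682 without it, where 2470 rose and 2880 fell with it.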

How the results depend on the processing

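The 7 calls at PND 145 (EB+T+E against control) numbered 7 with normexp, quantile scaling, both filters, slide or replicate blocks, the mean of all probes and the deposited table, 9 with only the groups compared and 10 with array weights, where Vwf and Vegfa fell. Leaving out 1 array gave 4 to 7, with 4 without EB+T+E replicate 1. The same gave 0 to 8 for this comparison at PND 100, 0 to 5 for EB at PND 100, 2 to 6 for EB+T+E against EB and 1 to 4 against T+E at PND 145, and 0 to 6 against T+E at PND 100. It also gave 0 to 3 for EB and 0 to 1 for EB+T+E at PND 145 against PND 100.

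Cdh5 in EB at PND 100 lost its call (0 genes) with normexp, quantile scaling, no filter, the mean of probes, the replicate block, the deposited table, plain eBayes and only the groups compared, and slide as a block called 2. Its log2 ratio was 1.84 to 2.01 under these (1.13 with the mean of probes), against 1.87. Esam against T+E at PND 100 was lost (0) with normexp, no filter, the replicate block, plain eBayes and only the groups compared. Against T+E at PND 145 the count was 1 with no filter, slide as a block and plain eBayes. With only the groups compared, the PND 100 comparison of EB+T+E with control had 0 and control PND 100 against PND 30 had 1.

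Array weights called 4 genes for EB at PND 30, 6 at PND 100 for EB and 8 for EB+T+E (both against control), and 2 for T+E at PND 145. For EB+T+E they called 8 against EB and 8 against T+E at PND 145, and 4 against T+E at PND 100; the PND 145 interaction had 1. Between ages they called 5 for EB and 1 for T+E and for EB+T+E (PND 145 against PND 100), and 1 for control (PND 100 against PND 30). The shares of all genes called with array weights are not given here. These counts thus do not show whether the members gained calls more than other genes did. The replicate block left 7 and 4 calls of EB+T+E with control (PND 145, then PND 100), 4 with EB and 2 with T+E (PND 145). No called gene changed direction under any of these alternatives. The cause of the lost calls was not tested. With 3 or 4 arrays a group, differences of 1 on the log2 scale were often missed in the simulated data. These had 200 changed genes and the same spread in every group. They covered EB against control and control PND 100 against PND 30, so the rates are not known for EB+T+E comparisons.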
